A study of Mus musculus with 2 samples.

Results

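The imprinted Dlk1-Dio3 region of mouse chromosome 12 holds a string of microRNA (miRNA) genes, and the 10 described here lie around the gene Rtl1: Mir493, Mir337, Mir540, Mir665, Mir431, Mir433, Mir127, Mir434, Mir136 and Mir370. They form a list given by name and position, which does not hold every miRNA gene near Rtl1 and leaves out the distal miRNA genes of the region, from Mir379 to Mir3072. Coordinates refer to build GRCm38 of the mouse genome, also called mm10. Of these 10 genes, 9 have a row of their own among the 1973 miRNA genes of the count tables. Mir136 has none under its identifier, and its locus is described separately below. The libraries came from whole thymus, where T cells develop, of 2 newborn pups (postnatal day 0) of 1 litter of the strain B6NCrl. Replicate 1 was made from both lobes of pup 2 and replicate 2 from both lobes of pup 3. The pups belong to a single group for which no treatment is named, their sex was not recorded, and the labels give them the same donor identifier. No condition was compared, and with 1 library per pup a difference between animals and one that arose in dissection or library preparation cannot be told apart.

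In this region the paternal chromosome expresses the protein-coding genes Dlk1, Rtl1 and Dio3, and the maternal chromosome expresses long noncoding RNAs, among them Meg3, Rian and Mirg, together with the miRNAs. Rtl1 encodes a protein derived from a retrotransposon that is needed in the placenta. A maternal transcript antisense to Rtl1 carries several of the miRNAs, and since they are cut from the opposite strand of the same DNA, they pair perfectly with Rtl1 mRNA and can direct its cleavage. Counts from an inbred strain do not separate the parental chromosomes, and Rtl1 mRNA was not measured, so neither imprinting nor targeting is observed in these libraries.

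The tables covered 10642220 reads in replicate 1 and 4892171 in replicate 2, and 2734133 and 1289151 of them fell on the sense strand of a miRNA gene. A level is given in counts per 1000000 of those counts (CPM). Values after ± are SD (n = 2 libraries), and intervals are exact 95% intervals that cover the counting error of reads only. No molecular identifiers are mentioned for the reads, so reads copied from the same molecule cannot be recognised and the intervals can be too narrow. In whole tissue, fewer cells of a type and less RNA per cell cannot be told apart. Of the thymocyte miRNAs listed as a check of the tissue, 7 of 8 have a row under the listed symbol. Mir146a has its row under the symbol Mir146 (3045 and 942 counts) and is in no thymocyte sum here. None of the 7 had fewer than 10 counts in either library, and their summed level was 57635 CPM in replicate 1 and 52740 CPM in replicate 2. Of 6 neural rows Mir137 was detected, with 159 and 109 counts, and Mir124a-1, Mir124a-2, Mir124a-3 and Mir9-2 were at 0 counts in both libraries. These 4 share 20 bases with other loci, so their reads can be among the unassigned multimapping reads, and their 0 does not show absence.

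The sequences below, from RefSeq on build GRCm38.p6, show the mature arms of the 5 genes antisense to Rtl1, of which the 4 with a row carry the largest part of the counts. The seed, bases 2 to 8 of the mature miRNA and the part that chiefly selects its targets, is in capitals.
miR-431-5p: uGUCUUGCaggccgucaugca
miR-431-3p: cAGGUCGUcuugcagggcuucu
miR-433-5p: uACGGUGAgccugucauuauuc
miR-433-3p: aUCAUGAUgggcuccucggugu
miR-127-5p: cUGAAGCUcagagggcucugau
miR-127-3p: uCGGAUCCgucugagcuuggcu
miR-434-5p: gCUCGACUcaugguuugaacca
miR-434-3p: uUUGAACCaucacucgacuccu
miR-136-5p: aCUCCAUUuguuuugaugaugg
miR-136-3p: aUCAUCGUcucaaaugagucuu

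All 10 of these arms had a stretch of perfect complement over their whole length in the annotated Rtl1 transcript (GENCODE M21), and all 10 sites lay in its coding sequence. This follows from their position. Of the 10 arms of the other 5 genes none did, and their longest complementary stretch in that transcript was 8 to 11 bases. The site of miR-127-3p in Rtl1, at chr12:109592888-109592909 and written on the minus strand with the bases opposite the seed in capitals, shows the arrangement.
Rtl1 site of miR-127-3p: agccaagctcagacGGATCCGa

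The hairpin of Mir127, at chr12:109592846-109592915 on the plus strand, is shown with both mature arms in capitals because the tables count reads per hairpin gene and do not say which arm they came from.
Mir127 hairpin: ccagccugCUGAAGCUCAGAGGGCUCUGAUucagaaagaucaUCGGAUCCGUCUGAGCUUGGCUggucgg

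Although the genes lie side by side, their mature miRNAs do not form a seed family. The 20 arms of the 10 genes had 20 different seeds. Only 2 of the 20 arms (10%) shared a seed with a miRNA of another gene, against 27.9% of the 1679 mature miRNAs in the RefSeq table. Of the annotated mouse miRNAs, miR-6915-5p of chromosome 10 had the seed of miR-540-3p. The seed of miR-370-5p recurred in miR-1193-3p, whose gene lies in the distal cluster of the same imprinted region, and both are shown for the match.
miR-370-5p: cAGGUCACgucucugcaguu
miR-1193-3p: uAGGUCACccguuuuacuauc

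None of the 9 counted hairpins had 20 bases in common with a miRNA gene elsewhere in the annotation. Of the 294 genes that reached 10 counts in each library, called detected below, 22.1% did. Reads that mapped to several places were tallied apart from the genes, and they were 56.3% and 57.5% of all reads. By the annotated miRNA genes, the 9 have no near copy that would take their reads out of the counts in this way, but matches elsewhere in the genome were not examined.

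Together the 9 genes had 10131 counts in replicate 1 and 6119 in replicate 2, which was 0.371% and 0.475% of all counts on the gene strand (0.423% ± 0.0736). All 9 were detected, and their mean levels ran from 11.8 to 2263 CPM. The 4 counted genes antisense to Rtl1 held 86.9% of these counts in replicate 1 and 89.6% in replicate 2 (88.3% ± 1.91). The 4 genes between Meg3 and Rtl1 held 12.2% and 9.48% (10.8% ± 1.90), and Mir370, beyond Rtl1, held 0.918% and 0.915%. The antisense genes thus had 8.30 ± 1.64 times the counts of the equally many genes before them.

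**Figure D1:**
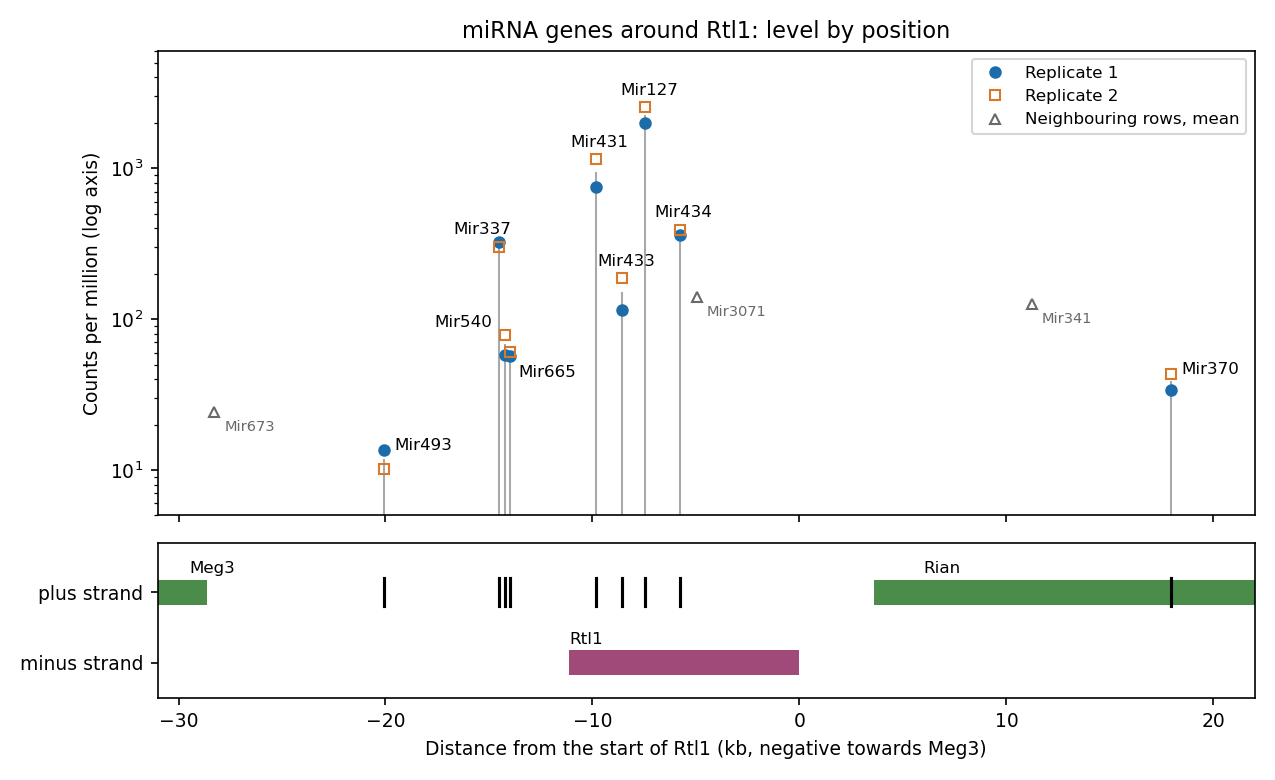
Level of the 9 counted miRNA genes in CPM on a log axis against distance from the start of Rtl1 in kb, with Meg3, Rian and Rtl1 drawn below by strand; circles are replicate 1, squares replicate 2, lines run to the mean, and triangles are neighbouring rows of the tables with at least 10 counts in both libraries. The triangle labelled Mir3071 may hold reads of Mir136. Mir127 and Mir431 stand highest, inside the span of Rtl1, and Mir493, the gene of the 9 nearest to Meg3, is lowest.

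Mir127 (ENSMUSG00000070076, chromosome 12, 109592846 to 109592915, plus strand) led the group. Its miRNA is the best known of those that repress Rtl1 and has also been studied as a repressor of Bcl6. It lay opposite coding sequence of Rtl1 and had 5466 counts in replicate 1 and 3258 in replicate 2, or 1999 CPM (interval 1947 to 2053) and 2527 CPM (2441 to 2616). The mean was 2263 CPM ± 373, rank 75 of the 1973 genes. Mir127 alone made 54.0% and 53.2% of the counts of the 9 genes (53.6% ± 0.501), so that its share was nearly constant while its level differed between the pups.

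Mir431 (ENSMUSG00000070080, 109590447 to 109590537, plus strand), whose miRNA has been studied in muscle stem cells as a repressor of Pax7, came second. It lay opposite Rtl1 coding sequence as well and had 2043 and 1480 counts. Its level was 747 CPM in replicate 1 and 1148 CPM in replicate 2 (948 ± 283), the widest absolute gap after that of Mir127. Mir127 exceeded it by 2.68 times in replicate 1 and 2.20 times in replicate 2.

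Mir434 (ENSMUSG00000070133, 109594506 to 109594599, plus strand) and Mir433 (ENSMUSG00000070072, 109591715 to 109591838, plus strand) were the remaining counted genes opposite Rtl1 coding sequence. Mir434 had 981 and 505 counts, a level of 359 CPM and 392 CPM (375 ± 23.3). Mir433 had 315 and 240 counts, a level of 115 CPM and 186 CPM (151 ± 50.2). Both libraries of Mir434 thus stood above both of Mir433, although Mir434 was close to even between the pups and Mir433 was not. Mir127 exceeded Mir433, its neighbour on the antisense transcript, by 15.5 ± 2.67 times.

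The genes between Meg3 and Rtl1 overlapped no other annotated gene in GENCODE M21 in a search that left out miRNA and other small RNA genes. The minus-strand Mir3544 lies within Mir337. Mir337 (ENSMUSG00000065526, 109585789 to 109585885, plus strand) had 883 and 388 counts, or 323 CPM and 301 CPM (312 ± 15.5). Mir540 (ENSMUSG00000072900, 109586080 to 109586146) had 158 and 101 counts, or 57.8 and 78.3 CPM (68.1 ± 14.5). Mir665 (ENSMUSG00000076313, 109586314 to 109586407) had 155 and 78 counts, or 56.7 and 60.5 CPM (58.6 ± 2.70). Mir337 exceeded Mir540, the next gene along the chromosome, by 4.72 ± 1.24 times, and the counts of Mir540 and Mir665 were nearly equal in replicate 1.

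Mir493 (ENSMUSG00000077025, 109580233 to 109580315), whose miRNA has been studied as a suppressor of liver metastasis, was the lowest of the 9. It had 37 and 13 counts, or 13.5 CPM (interval 9.53 to 18.7) and 10.1 CPM (5.37 to 17.2), and Mir337 exceeded it by 26.9 ± 4.23 times. Mir370 (ENSMUSG00000065433, 109618258 to 109618336), whose miRNA has been studied in liver as a repressor of the fatty acid oxidation gene Cpt1a, lay in an intron of Rian on the same strand. It had 93 and 56 counts, or 34.0 and 43.4 CPM (38.7 ± 6.66). Even these least abundant genes were above 3 counts, an approximate limit for a count of 0, which equal 1.10 CPM in replicate 1 and 2.33 CPM in replicate 2.

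In order of level the genes ran Mir127, Mir431, Mir434, Mir337, Mir433, Mir540, Mir665, Mir370, Mir493. The ranges of neighbours in this order did not overlap over the 2 libraries, except for Mir540 and Mir665, which did not differ beyond their spread (ratio 1.16 ± 0.195). Mir434 and Mir337 came close, with a ratio of 1.11 in replicate 1 and 1.30 in replicate 2. A read is 1 small RNA of under 30 bases whatever the length of the hairpin, so CPM was not divided by length. Divided by the hairpin length, 67 to 124 bases among the 9, the order was identical, with 3233 CPM per 100 bases for Mir127 and 14.2 CPM per 100 bases for Mir493. Mir127, Mir431, Mir434 and Mir337 lay above the median mean level of the 294 detected genes, 239 CPM, and the other 5 lay below it.

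**Figure D2:**
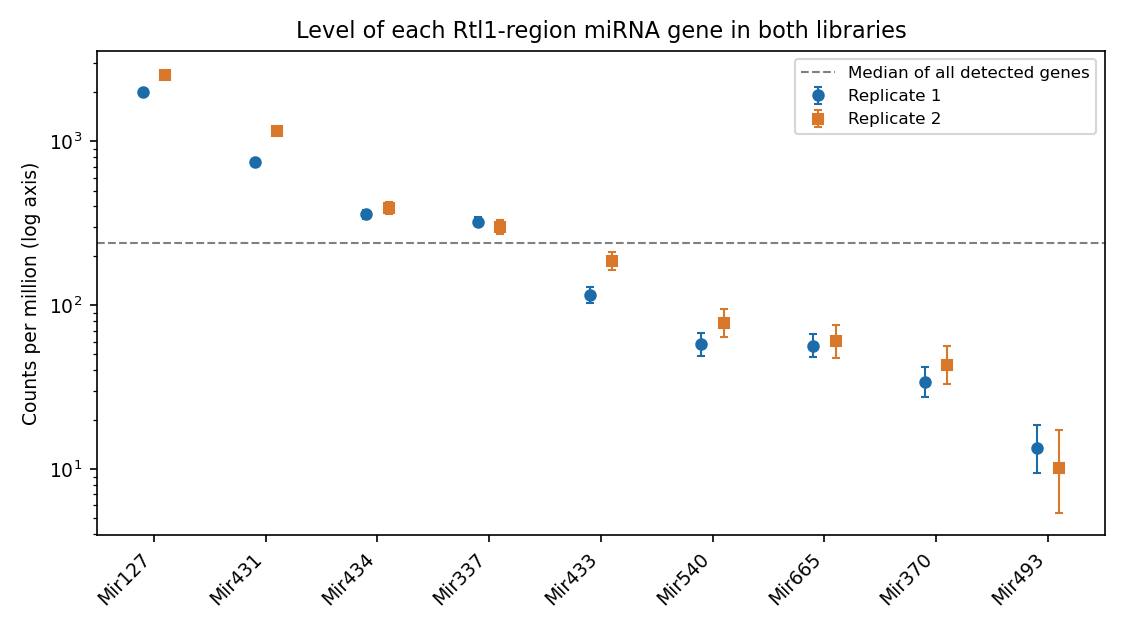
Level of each gene in CPM on a log axis, in order of mean level, with exact Poisson 95% intervals; circles are replicate 1, squares replicate 2, and the dashed line is the median mean level of the 294 detected genes, 239 CPM. Of the 9 genes 4 lie above the line in both libraries, and the intervals widen towards Mir493 with its 37 and 13 counts.

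Among detected genes outside chromosome 12, those closest to Mir127 in log2 CPM over both libraries were Mir532 of the X chromosome (2135 and 2462 CPM, distance 0.10), Mir92-2 (1986 and 2326 CPM, distance 0.12) and Mir150 of chromosome 7, a miRNA of mature lymphocytes (1853 and 2333 CPM, distance 0.16). Likeness over only 2 libraries is a likeness of level. Mir92-2 shares 20 bases with another locus, so its level is uncertain.

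Mir136, a miRNA gene of the Rtl1 antisense transcript (ENSMUSG00000104858, 109595327 to 109595388, plus strand), could not be given a level. The tables hold instead a row ENSMUSG00000070129 in version 1, with 383 and 181 counts on the strand of that gene (140.1 and 140.4 CPM) and none on the opposite strand. In GENCODE M21 this identifier, in version 2, is Mir3071, on the minus strand at 109595318 to 109595397 and so over the whole of Mir136. The version number changed between the annotation used for counting and M21, so which strand was counted is not known here. All reads of the row lay on the same strand, and the genes lie on opposite strands. The row may thus hold reads of Mir136 or of Mir3071, but not of both. Both genes use the same DNA, and miR-136-5p and miR-3071-3p, shown for this overlap, are complementary over 20 bases.
miR-136-5p: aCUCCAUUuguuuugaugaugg
miR-3071-3p: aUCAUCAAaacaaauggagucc

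The row differed by 0.227 CPM (SD) between libraries around a mean of 140.2 CPM, a level between those of Mir433 and Mir540. For 3 of the 9 counted genes (Mir337, Mir540 and Mir127) the version in the tables also differs from M21, so the boundaries used in counting may differ from those given above. The other 6 have the version of M21.

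Reads over the 9 genes lay almost entirely on the annotated strand. Of 10132 reads on both strands of these genes in replicate 1, only 1 lay on the opposite strand (0.00987%, 95% Wilson interval 0.00174 to 0.0559), over Mir337, where Mir3544 is annotated. In replicate 2 none of 6119 did, with a Wilson upper bound of 0.0627%. Over all miRNA genes of the tables the opposite strand took 14.6% and 14.3%. Most of these reads lay over Mir142b, with 387318 of the 468355 opposite-strand reads in replicate 1 and 178605 of the 215626 in replicate 2. In the distal cluster of the same region the share was 22.9% and 20.2%, from 4 rows whose reads lay only on the opposite strand. The 11 other rows before the distal cluster, described below, had no opposite-strand read among 777 and 408. The near absence of such reads is thus not particular to the 9 genes. Mir3544 itself has no row. Along the stretch that Rtl1 occupies on the minus strand, no counted read of the 4 antisense genes came from the Rtl1 strand.

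Of the 11 other miRNA rows from the start of Meg3 to the distal cluster, 4 were detected. They were Mir770 in an exon of Meg3 (20 and 11 counts), Mir673 (60 and 34), the row named Mir3071 in M21, and Mir341 in an intron of Rian (311 and 178 counts, 126 CPM ± 17.2). The row named Mir3071, described above, may hold reads of Mir136 instead, so it does not show that Mir3071 is expressed. A further 5 had 0 counts in both libraries. One of these, named after its values were seen, was Mir432, which lies opposite Rtl1 coding sequence between Mir434 and Mir136. By the exact interval its 0 counts allow up to 1.35 CPM in replicate 1 and 2.86 CPM in replicate 2. Rows with many counts and a row with none thus lay side by side on this stretch. All 11 rows together had 777 and 408 counts, of which 383 and 181 were of the Mir3071 row, against 10131 and 6119 for the 9 genes.

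The distal cluster, the 38 rows from Mir379 to Mir3072, had 20554 and 12814 counts, so the 9 genes had 0.493 and 0.478 times as many (0.485 ± 0.0109). The ratio was thus nearly equal in both pups, although each set was higher in replicate 2. It depended on genes with near copies: without those that share 20 bases with another locus, a step that removes the leading distal gene Mir411 and no gene of the 9, it was 0.810. With the 4 distal loci read on the opposite strand counted in, it was 0.380. The median level of a row was 151 CPM among the 9 and 24.4 CPM among the 38 distal rows, of which 28 were detected. These sets are unlike, since the 9 are a named list and the 38 are all rows of their stretch. Of the 38, 7 had 0 counts in both libraries. The 11 other rows before the distal cluster, the Mir3071 row among them, had a median of 0.959 CPM. Mir127 was at the level of the highest distal genes, and its count was 1.21 and 0.863 times that of Mir411 and 1.61 and 1.63 times that of Mir379. The order of Mir127 and Mir411 was opposite in the 2 libraries.

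**Figure D3:**
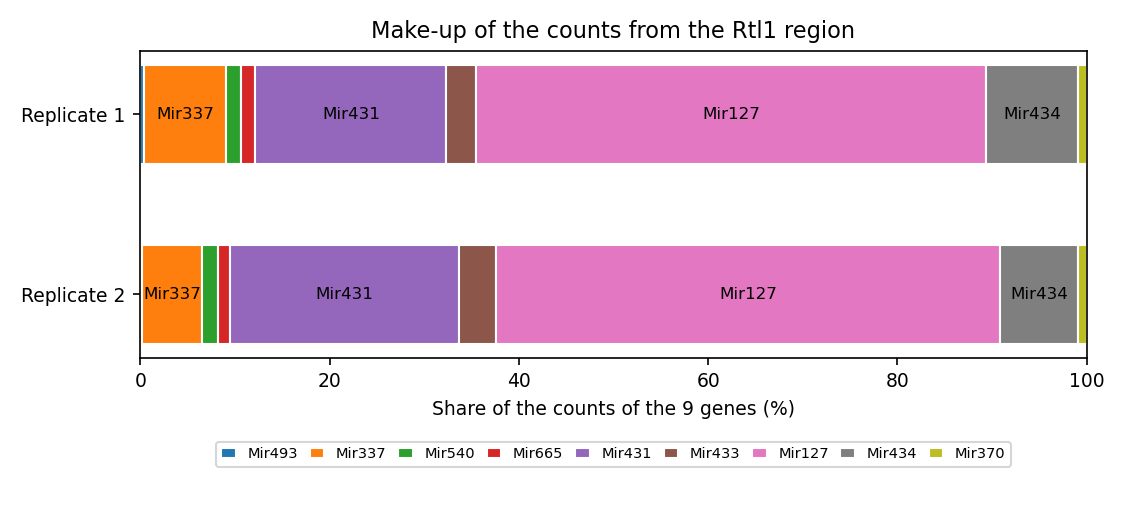
Share of the counts of the 9 genes taken by each gene, in percent, stacked in chromosomal order for replicate 1 (top) and replicate 2 (bottom). Mir127 takes 54.0% and 53.2%, while Mir431 widens from 20.2% to 24.2% and Mir337 narrows from 8.72% to 6.34%.

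Between the littermates, 3 of the 9 genes differed beyond counting error, Mir431, Mir433 and Mir127, all opposite Rtl1 and all higher in replicate 2. No other gene of the 9 passed the test. The test was an exact binomial test of each gene's counts, two-sided and scaled by trimmed mean of M-values (TMM), with Benjamini-Hochberg adjustment over all 294 detected genes at 0.05. The test called 128 of the 294, or 43.5%, so with this filter and scaling the share of 3 of 9 is no higher than the background, and it compares these 2 libraries, not conditions. Higher in replicate 2 were 59 of the 294 (20.1%) and lower were 69 (23.5%). When scaled to total counts this split was 72 higher and 52 lower.

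Mir433, at 115 and 186 CPM, had the largest ratio of replicate 2 over replicate 1, 0.63 on the log2 scale (0.38 to 0.87, adjusted exact binomial p = 2.43e-06). Mir431, at 747 and 1148 CPM, had a log2 ratio of 0.55 (0.46 to 0.65, adjusted exact binomial p = 1.19e-27). Their ratio to each other moved little, with Mir431 at 6.49 and 6.17 times Mir433. Mir127, at 1999 and 2527 CPM, had a log2 ratio of 0.27 (0.21 to 0.33, adjusted exact binomial p = 2.01e-16). The intervals of Mir431 and Mir433 lay above that of Mir127, and relative to Mir127 the count of Mir431 was 0.374 in replicate 1 and 0.454 in replicate 2.

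Mir434, the remaining counted gene of the antisense stretch, had a log2 ratio of 0.06 (-0.10 to 0.22, adjusted exact binomial p = 0.616). It had more counts than Mir433 in both libraries, and its interval lay below those of Mir431 and Mir433. Mir337 had -0.17 (-0.34 to 0.0058, adjusted p = 0.114 by the same exact test), Mir540 0.37 (-0.0021 to 0.74, adjusted exact p = 0.0999), Mir665 0.03 (-0.38 to 0.43), Mir370 0.29 (-0.22 to 0.78) and Mir493 -0.49 (-1.53 to 0.45). Mir540 passed when scaled to total counts (log2 ratio 0.44, adjusted exact p = 0.0464, with 42.2% of genes called) and with at least 100 counts required (0.41, adjusted exact p = 0.0480, with 60.2% called). The wide intervals of Mir493, Mir370 and Mir665 do not show that these genes were alike in the pups.

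**Figure D4:**
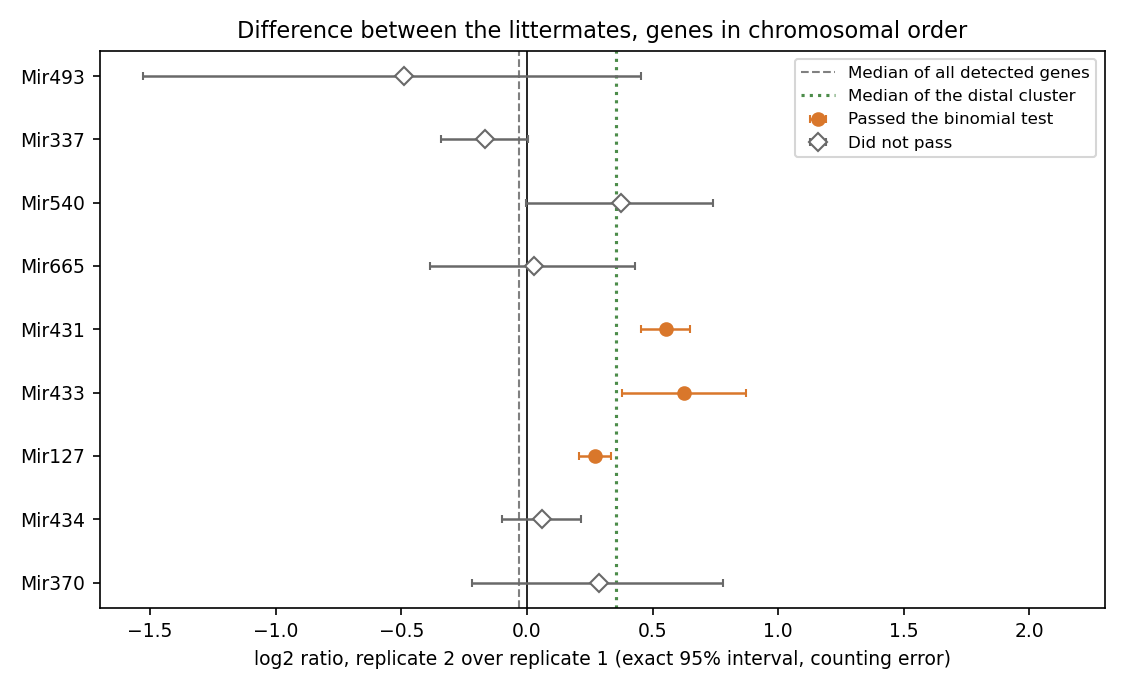
The log2 ratio of replicate 2 over replicate 1 for each gene in chromosomal order, with exact 95% intervals for counting error; filled circles passed the exact binomial test and open diamonds did not, the dashed line is the median of all detected genes (-0.03) and the dotted line that of the distal cluster (0.36). The 3 filled circles, Mir431, Mir433 and Mir127, lie next to each other on the chromosome, to the right of 0.

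The median log2 ratio of the 9 genes was 0.27, against -0.03 over all 294 detected genes, and 7 of the 9 were above 0, against 137 of 294 (46.6%). By position, 3 of 4 counted antisense genes passed (median 0.41), against 0 of 4 genes between Meg3 and Rtl1 (median -0.07) and 128 of 294 (43.5%) of all detected genes. The row of the Mir136 locus, also within Rtl1 but not among these 4, did not pass. Its log2 ratio was -0.06 (-0.33 to 0.20, adjusted exact binomial p = 0.764). The difference between these stretches was not tested, and with 4 genes in each nothing particular to either can be read from the counts. By summed level the antisense genes had 3220 and 4253 CPM and the genes between Meg3 and Rtl1 had 451 and 450 CPM. In the distal cluster 9 of 28 detected genes passed, a share below the 43.5% of all genes, all 9 higher in replicate 2 (20.1% of all genes), with a median of 0.36. A test that allows for spread between libraries (edgeR's negative binomial test, biological coefficient of variation 0.154) called none of the 9 genes, and 1 of the 294 (0.34%). At an unadjusted p under 0.05 it passed none of the 9 and 15 of the 294 (5.1%). The spread used by this test was estimated from these same 2 libraries taken as 1 group. Few calls were thus built in, and the result is no independent check of the binomial calls.

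Markers of several other cell types also differed between these libraries. The 7 mesenchymal and smooth muscle rows summed to 53472 CPM in replicate 1 and 69151 CPM in replicate 2, with 3 of 6 detected rows higher in replicate 2 and none lower by the binomial test. Most of this sum was Mir143, at 42989 and 57301 CPM. The endothelial gene Mir126a had 28049 and 37298 CPM. The 7 striated muscle rows summed to 481 and 742 CPM, with Mir133a-1, Mir133a-2 and Mir1a-1, which also share bases with other loci, at 0. Most of this sum was the skeletal muscle gene Mir206, at 445 and 442 CPM, while Mir208b, in an intron of a cardiac myosin gene, had 21.9 CPM in replicate 1 and 185 CPM in replicate 2 (log2 ratio 3.01, adjusted exact binomial p = 1.2e-60) and was the 1 gene called by the negative binomial test. Its relative Mir208a had 2.19 and 81.4 CPM, and Mir499 had 11.7 and 34.1 CPM. The 6 neural rows summed to 58.5 and 85.3 CPM, nearly all from Mir137, with the 4 zero rows named above. The 7 thymocyte rows summed to 57635 CPM in replicate 1 and 52740 CPM in replicate 2. By the binomial test 2 of these rows were higher in replicate 2 and 5 were lower. Mir146, the row of the listed Mir146a and not among these 7, was lower too, at 1114 and 731 CPM (log2 ratio -0.67, adjusted exact binomial p = 1.1e-37). The 2 erythroid rows summed to 231 and 168 CPM, with 0 rows higher and 1 lower. The sums of the 7 epithelial rows were close to even at 39648 and 40633 CPM, but 3 rows were higher and 2 were lower. The 4 brown fat rows, of which 2 were detected, summed to 526 and 503 CPM, with 0 rows higher and 0 lower. The part of these cell types in the levels of the Rtl1-region genes was not tested.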

How the data were processed

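RNA of under 30 nucleotides, per the labels, was sequenced in 2 thymus libraries of 1 group. The authors deposited raw read counts per miRNA gene, mapped to mm10 and counted over GENCODE M4, per the deposited text files. Aligner and counter: not given in the sources used here. Of 3 unnamed count columns the second (strand of the gene) was used, and the first (both strands) was an alternative. Rows naming no gene, 69.9% and 69.2% of reads, were left out. Of 1973 identifiers 1894 matched GENCODE M21. Tests took genes that reached 10 counts in each library, and shared sequence means 20 identical bases. Scaling used TMM (edgeR 4.0.16, R 4.3.3), with DESeq2 1.42.0 size factors as an alternative. Exact binomial tests used scipy 1.17.1 (Python 3.11.15) and were tested on simulated counts. Those counts were drawn with counting error alone, so they cannot show how the test behaves with spread between libraries. All genes of the list are named, beside detected neighbours, the 2 highest distal genes, Mir1193 as a seed match, marker genes beside a result and the 3 genes nearest Mir127 in level. Mir142b is named for its opposite-strand reads, after its values were seen. The genes and lists were chosen with earlier results of these data known. The p-values measure counting error between these 2 libraries, not variation over pups. Because multimapping reads were not assigned, genes with near copies can be undercounted.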

Additional observations from a re-analysis of the deposited data

How the results depend on the processing

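The 3 calls among the 9 genes (Mir431, Mir433 and Mir127) came from counting error alone. Few calls were built into edgeR's negative binomial test, whose spread was estimated from these same 2 libraries. The count of called genes of the 9 was 0 with that test, which called 1 of 294 genes where the exact binomial test called 128. Otherwise 3 or 4 passed under the other scalings, filters and count columns. With at least 1 count required 3 of 9 passed against 24.8% of all genes tested, and with at least 100 counts 4 of 6 against 60.2%. Scaled to total counts 4 of 9 passed against 42.2%. In these settings the share was above that of all genes, but with so few genes no excess can be read from it. No log2 ratio changed sign, and the median over the tested genes ran from 0.17, with the Mir3071 row counted as Mir136 (chosen after seeing the data), to 0.36. With that row, the share of Mir127 was 51.9% and the ratio to the distal cluster 0.502. That ratio was 0.380 in the unstranded column, 0.380 with only the distal loci on both strands (chosen after seeing the data) and 0.810 without genes that share sequence. Leaving out 1 library gave a share of all counts of 0.371% or 0.475%. With 1 library left no comparison between libraries exists. No paired analysis was possible because there is only 1 group. Depth limits Mir493 most, at 13 counts in replicate 2.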
